A study of Mus musculus with 16 samples.

Results

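The genes described here are the granzymes and perforin, 10 genes whose products fill the cytotoxic granules of killer lymphocytes, among the 24982 genes of the count table. They were taken by name: perforin (Prf1), the lymphocyte-type granzymes Gzma, Gzmb, Gzmk and Gzmm, and the clustered granzymes Gzmc, Gzmd, Gzme, Gzmf and Gzmg. They were chosen with their values across these tumors known, and in particular with the difference between Shh and Myc tumors known, so that difference is described below with no p-value of theirs. How many of them pass a threshold there was fixed by the choice and supports nothing.

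The RNA came from 16 primary rhabdoid tumors, each from its own mouse. Every mouse carried both floxed Smarcb1 alleles and R26-CreERT2, a tamoxifen-dependent Cre driven from the Rosa26 locus in unrestricted cell types. Smarcb1, a core SWI/SNF subunit, was therefore targeted in whatever cells the Cre reached, and there was no tumor with intact Smarcb1. Tamoxifen was given at embryonic day 6, 7 or 8 (E6, E7 or E8). Of the tumors, 5 lay inside the central nervous system (intra-CNS), induced at E6 and taken at 30 to 180 days. Another 6 were intracranial but extra-CNS, of which 4 received tamoxifen at E8 and 1 each at E6 and E7, taken at 52 to 170 days. The other 5 were extracranial (back, jaw, nose or mouth), of which 4 received it at E8 and 1 at E6, taken at 80 to 210 days. The study's mouse list names the intra-CNS tumors Shh and the other 11 Myc. It also places the nose tumor 43990A with the intracranial extra-CNS ones, whereas here it follows its label.

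Granzymes are serine proteases that perforin delivers into a target cell by making pores in its membrane. Granzyme B cuts after aspartate and starts apoptosis through caspases and Bid, and granzyme A kills without caspases. In the mouse, a further set of granzyme B relatives, Gzmc to Gzmg with the testis form Gzmn, sits beside Gzmb and the chymase genes of mast cells. Activated cytotoxic T cells, natural killer (NK) cells and the granulated NK cells of the pregnant uterus are known to make the clustered granzymes. Bulk tumor RNA does not tell fewer cells of a type from less RNA per cell, so every level below is a level per tumor.

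The clustered genes lie in tandem on the minus strand of chromosome 14 (mm10, GENCODE M21). Gzme is at chr14:56117626-56120625, Gzmd at chr14:56129556-56132608, Gzmg at chr14:56156582-56159579, Gzmf at chr14:56205263-56211417, Gzmc at chr14:56231441-56234656 and Gzmb at chr14:56258838-56262260. These genes, with Gzmn between Gzmg and Gzmf, span 145 kb. Gzma and Gzmk lie on chromosome 13, and Gzmm and Prf1 on chromosome 10.

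The promoters of the genes that moved together are shown because they are near copies of each other. The sequences are RefSeq promoters of GRCm38.p6, the patch release of the mm10 build, each from 250 bases before to 50 after the annotated start. Capitals mark ACCACA or its complement TGTGGT (the core letters of a RUNX site), TGACGTCA (the cyclic AMP response element, CRE) and TGANTCA (AP-1).
Gzmc promoter (chr14:56234608-56234907, minus strand): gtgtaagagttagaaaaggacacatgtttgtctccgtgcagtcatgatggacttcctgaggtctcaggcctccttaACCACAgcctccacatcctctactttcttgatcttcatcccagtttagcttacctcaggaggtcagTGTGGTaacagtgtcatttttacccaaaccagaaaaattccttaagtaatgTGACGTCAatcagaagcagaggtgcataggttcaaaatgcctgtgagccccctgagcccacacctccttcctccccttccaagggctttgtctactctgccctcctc
Gzmd promoter (chr14:56132544-56132843, minus strand): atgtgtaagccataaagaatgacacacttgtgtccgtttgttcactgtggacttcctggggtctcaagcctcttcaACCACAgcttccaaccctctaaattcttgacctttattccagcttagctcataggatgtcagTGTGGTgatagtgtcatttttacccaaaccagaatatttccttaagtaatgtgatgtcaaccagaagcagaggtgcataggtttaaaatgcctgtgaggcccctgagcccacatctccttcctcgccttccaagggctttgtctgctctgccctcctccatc
Gzme promoter (chr14:56120576-56120875, minus strand): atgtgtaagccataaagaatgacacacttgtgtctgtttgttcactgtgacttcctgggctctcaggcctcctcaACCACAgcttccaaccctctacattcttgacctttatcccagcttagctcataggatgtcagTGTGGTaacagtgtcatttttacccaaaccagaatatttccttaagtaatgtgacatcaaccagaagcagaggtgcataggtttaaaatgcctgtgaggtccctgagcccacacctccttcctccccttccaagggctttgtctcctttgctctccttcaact
Gzmf promoter (chr14:56211358-56211657, minus strand): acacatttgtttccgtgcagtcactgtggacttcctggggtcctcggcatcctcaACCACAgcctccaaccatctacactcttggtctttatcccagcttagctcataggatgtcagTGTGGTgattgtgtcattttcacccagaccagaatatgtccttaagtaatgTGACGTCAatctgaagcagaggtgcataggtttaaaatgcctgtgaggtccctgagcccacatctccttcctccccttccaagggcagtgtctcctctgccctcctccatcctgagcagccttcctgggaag
Gzmg promoter (chr14:56159530-56159829, minus strand): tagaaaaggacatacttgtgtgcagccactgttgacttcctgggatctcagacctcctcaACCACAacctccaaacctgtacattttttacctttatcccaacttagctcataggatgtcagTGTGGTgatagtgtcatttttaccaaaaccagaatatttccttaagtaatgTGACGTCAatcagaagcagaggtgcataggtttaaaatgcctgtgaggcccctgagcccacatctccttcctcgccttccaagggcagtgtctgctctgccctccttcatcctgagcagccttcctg
Gzmb promoter (chr14:56262285-56262584, minus strand): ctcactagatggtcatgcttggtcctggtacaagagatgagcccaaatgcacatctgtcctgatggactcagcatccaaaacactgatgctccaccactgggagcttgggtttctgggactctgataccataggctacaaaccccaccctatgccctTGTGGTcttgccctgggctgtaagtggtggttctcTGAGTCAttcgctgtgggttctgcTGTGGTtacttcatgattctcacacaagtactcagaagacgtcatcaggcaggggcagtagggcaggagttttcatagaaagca
Gzma promoter (chr13:113100932-113101231, minus strand): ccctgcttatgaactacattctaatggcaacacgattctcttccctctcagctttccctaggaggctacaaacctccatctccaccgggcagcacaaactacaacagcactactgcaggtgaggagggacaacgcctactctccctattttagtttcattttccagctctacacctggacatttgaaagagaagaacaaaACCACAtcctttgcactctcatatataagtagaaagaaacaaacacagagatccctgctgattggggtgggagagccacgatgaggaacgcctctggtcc

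Over the aligned bases, the promoters of Gzmc to Gzmg were 86.0% to 94.0% identical in the 10 pairs. The Gzmb promoter shared 59.6% to 63.2% with them and the Gzma promoter 57.5% to 60.8%. Each of the 5 clustered promoters held the RUNX letters at 2 places, the first 174, 174, 175, 195 and 190 bases before the start in Gzmc, Gzmd, Gzme, Gzmf and Gzmg. The second pair of letters stood 108, 112, 113, 133 and 128 bases before it. The Gzmb promoter also held them at 2 places and that of Gzma at 1. Of all 32851 RefSeq promoters of this length, 16.8% held the RUNX letters on either strand and 1.81% held them at 2 or more places. The CRE stood in Gzmc, Gzmf and Gzmg, at 57, 82 and 77 bases before the start, and in 1.79% of all promoters. TGANTCA was in none of the 5 clustered promoters but in that of Gzmb, and in 7.81% of all promoters. The T-box letters AGGTGT, searched on both strands, were in 2 of the 5 and in 13.7% of all promoters, and TATAAA was in none of the 5 and in 13.6%. None of these motifs overlapped another in the clustered promoters, and since the promoters are copies, their shared letters are not separate events.

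The same likeness bears on the counts, since reads of one clustered gene can fall on another. Over the aligned bases of the first GENCODE transcript, Gzmd and Gzme were 94.8% identical, and the 10 pairs of clustered genes 74.0% to 94.8%. Of the windows of 100 bases, the length of 1 read, 2 were found unchanged in both Gzmd and Gzmg, and none of the other 8 members' windows were found in another gene. With up to 2 mismatches allowed against the other members and Gzmn, 29.1% of the windows of Gzmd and 22.0% of those of Gzme had a match, against 12.5% for Gzmg, 6.83% for Gzmf and 3.40% for Gzmc. Gzma, Gzmb, Gzmk, Gzmm and Prf1 had no such window. The split between Gzmd, Gzme, Gzmg and Gzmf is therefore uncertain in detail, while Gzmc and the members outside the cluster are better separated.

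The libraries held 17889968 to 110177889 counts, the deepest being the intracranial extra-CNS tumor 29941C. Counts of 3 or fewer are treated as the floor here, which is 0.168 CPM (counts per 1000000 counts) in the shallowest library and 0.0272 in the deepest. Smarcb1 stood at 3.98 to 58.1 TPM (transcripts per 1000000 transcripts) in the intra-CNS tumors and at 6.48 to 43.7 in the Myc tumors, and with no undeleted tumor and stroma in each sample these values do not check the deletion. Tumor 29941C stood apart in the genes described here. It held the highest level of 8 of the 10, and values that it moves are given without it as well. Levels are TPM, in which the authors corrected for gene length, so that they can be compared between genes.

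**Figure D1:**
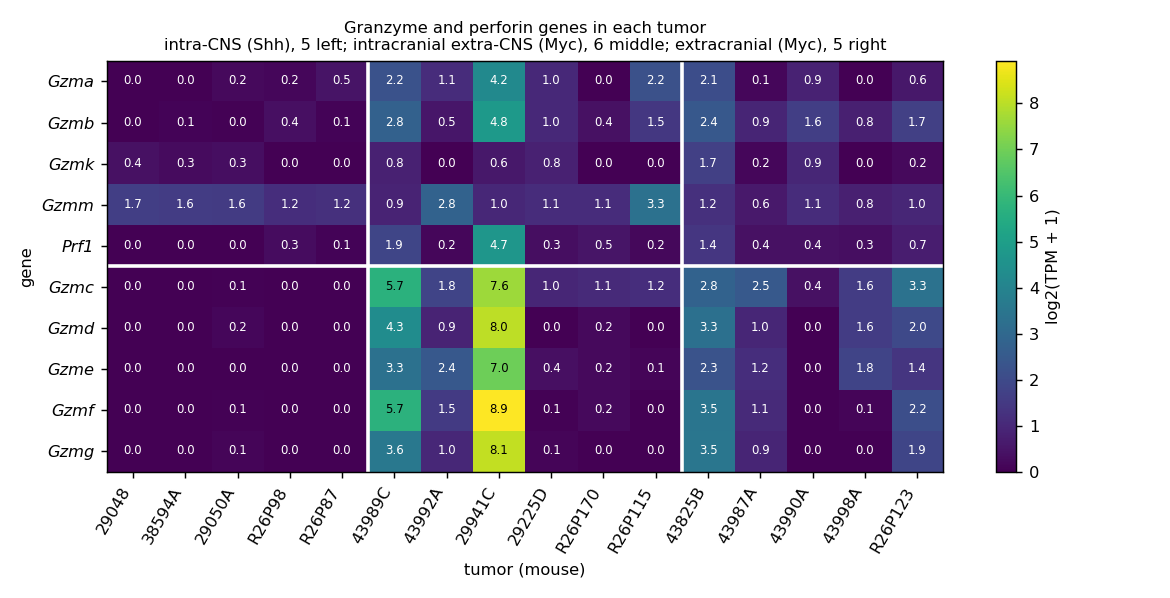
Heat map of log2(TPM + 1) for each of the 10 genes (rows) in each of the 16 tumors (columns); the white lines separate the 3 sites and the lymphocyte-type genes (top) from the cluster (bottom). Gzmc to Gzmg reach 7.0 to 8.9 in 29941C and at most 0.2 in the 5 intra-CNS tumors, while Gzmm lies between 0.6 and 3.3 in every tumor.

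Perforin, the pore former, was near 0 in the Shh tumors and low in most Myc tumors. In the Shh tumors Prf1 stood at 0, 0, 0.0190, 0.216 and 0.0539 TPM in 29048, 38594A, 29050A, R26P98 and R26P87. In the 11 Myc tumors it ranged from 0.111 to 24.9 TPM with a median of 0.327. The top value, of 29941C, was 9.36 times that of the next tumor, 43989C (2.66 TPM).

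Gzmb, the granzyme that starts caspase-dependent death, spanned the widest range of TPM among the lymphocyte-type granzymes. Its Shh values were 0, 0.0533, 0.0258, 0.293 and 0.0732 TPM in the order above, each from 4 counts or fewer. The Myc tumors lay between 0.315 and 27.0 TPM (median 1.75), so the groups did not overlap, a pattern of 2.44% of all genes. The gap was narrow, between 4 counts in the Shh tumor R26P98 and 6 counts in the Myc tumor R26P170. Besides 29941C, the highest were 43989C at 5.78 and the extracranial 43825B at 4.44 TPM. Gzma, the caspase-independent granzyme, stood at 0 to 0.377 TPM in the Shh tumors and at 0 to 17.8 (median 1.03) in the Myc tumors. It was listed at 0 in the Myc tumors R26P170 and 43998A, and 8 of the 11 Myc tumors lay above every Shh tumor, as did 8 or more of them for 9.54% of all genes.

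Gzmk and Gzmm lie outside the chromosome 14 locus. Over the 11 Myc tumors, Spearman's rho with Gzmb was 0.68 for Gzmk (0.73 without 29941C) and -0.08 for Gzmm (-0.01). Gzmk was low throughout, from 0 to 0.322 TPM in the Shh tumors and from 0 to 2.25 TPM in the Myc tumors, with 5 of the 11 Myc tumors above the floor. Its top value was in 43825B, from 17 counts, and not in 29941C (0.499 TPM). Gzmm was above the floor in all 16 tumors. It stood at 2.18, 2.01, 1.94, 1.26 and 1.34 TPM in the Shh tumors and at 0.542 to 9.14 TPM (median 1.17) in the Myc tumors. Its highest values were those of R26P115 (9.14 TPM) and 43992A (6.02 TPM), and the values of the other 9 Myc tumors fell among or below those of the Shh tumors.

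Gzmc was the member of the cluster found in every Myc tumor, at 0.312 to 194 TPM with a median of 2.57. Its lowest value, in 43990A, came from 4 counts. In the Shh tumors it was at 0 in 4 and at 0.0417 TPM, 1 count, in 29050A. Gzmd ranged from 0 to 258.5 TPM (median 0.955) in the Myc tumors, Gzme from 0 to 124 (median 1.62), Gzmf from 0 to 484.6 (median 1.08) and Gzmg from 0 to 275 (median 0.885). These 4 were above the floor in 7, 8, 6 and 6 of the 11 Myc tumors. Gzme had no count in any Shh tumor, and Gzmd, Gzmf and Gzmg had 3, 1 and 2 counts there, all in 29050A. Functions of the single clustered granzymes are less well known than those of Gzmb.

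The top of the cluster was taken by few tumors. The tumor 29941C held 71.0% of the summed Gzmc TPM of the Myc tumors, 88.2% of Gzmd, 84.2% of Gzme, 87.5% of Gzmf and 91.5% of Gzmg. The next was 43989C in each gene, lower by 3.77 times for Gzmc and by 25.5 times for Gzmg. The clustered genes summed to 1336 TPM in 29941C and to 143 in 43989C. The extracranial 43825B and R26P123 followed at 39.0 and 19.8 TPM, then 43992A at 10.8, 43987A at 8.83 and 43998A at 6.60. R26P170, R26P115 and 29225D lay at 1.62, 1.36 and 1.33, and 43990A at 0.312 TPM. The sum was 0.295 TPM in 29050A and 0 in the other 4 Shh tumors.

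The genes leading the cluster differed between tumors. Gzmf led in 29941C (485 TPM) and in 43989C (52.3 TPM), narrowly above Gzmc (51.5 TPM) in the second. Gzmc led in 43987A, R26P123, 29225D, R26P170, R26P115 and 43990A. Gzme led in 43992A and 43998A, at 4.46 and 2.57 TPM, and 43998A held Gzmf and Gzmg at 1 and 0 counts. Gzmg led in 43825B, at 10.25 TPM against 10.15 for Gzmf. These orders carry the uncertainty of shared reads given above, Gzmc excepted.

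The balance of the granzymes therefore ran from almost wholly clustered to almost wholly lymphocyte-type. As a share of the counts of the 9 granzymes, the cluster took 95.5% in 29941C (95% Wilson interval 95.3% to 95.6%) and 90.5% in 43989C (88.7% to 92.0%). In the extracranial tumors it took 73.0% in 43825B (68.8% to 76.8%), 78.2% in 43987A (72.5% to 83.0%), 74.1% in 43998A (65.3% to 81.3%) and 77.7% in R26P123 (72.9% to 81.9%). The extracranial 43990A differed, at 4.40% (1.72% to 10.8%). Of the intracranial extra-CNS tumors, 43992A stood at 49.4% (42.1% to 56.8%), R26P170 at 41.3% (28.3% to 55.7%), 29225D at 20.6% (15.1% to 27.4%) and R26P115 at 6.39% (3.85% to 10.4%). In the Shh tumors the share was 8.05% in 29050A (3.95% to 15.7%) and 0 in the others, where 21 to 39 granzyme counts allow up to 15.5%. Most of the Shh granzyme level was Gzmm, which made 74.9% to 88.7% of the lymphocyte-type TPM. Gzmm also made 78.8% of it in 43992A, 79.0% in R26P170 and 63.0% in R26P115. With Gzmm left out of the counts, a share looked at after these values were seen, the cluster took 85.3% in 43992A, 76.0% in R26P170, 28.3% in 29225D, 17.95% in R26P115, 5.88% in 43990A and, from 7 of 17 counts, 41.2% in 29050A. The 4 extracranial tumors other than 43990A then stood at 75.9% to 84.7%. Intervals cover counting error only. By TPM the share was higher in each Myc tumor, 58.5% in 43992A and 51.9% in R26P170 for example, and the cluster held over 50% in 8 of the 11 Myc tumors, against 6 by counts.

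**Figure D2:**
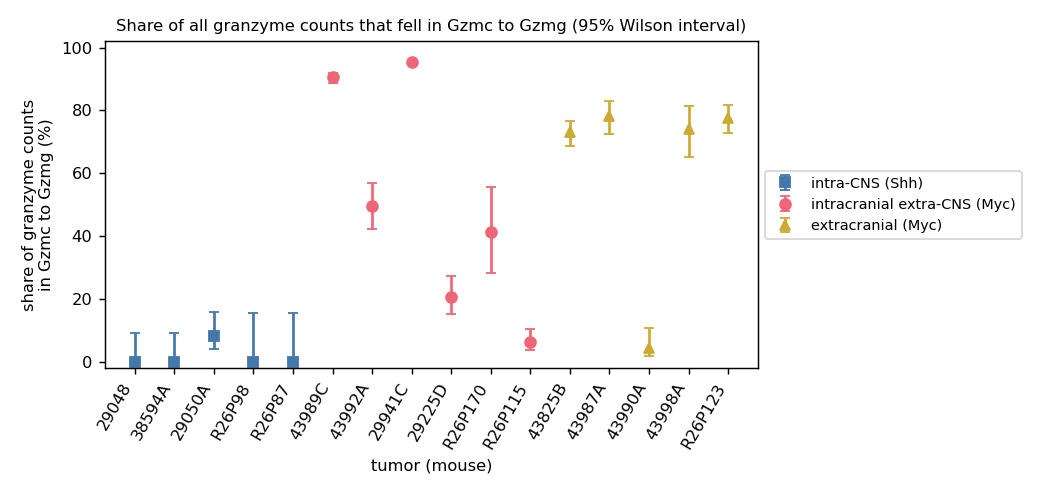
Share of the counts of the 9 granzymes that fell in Gzmc to Gzmg (vertical axis, percent) in each tumor (horizontal axis), with the 95% Wilson interval as bars; colors and symbols give the site. The share is over 70% in 4 of 5 extracranial tumors and in 29941C and 43989C, and at most 8.05% in the Shh tumors.

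Across the 11 Myc tumors, the clustered genes rose and fell together. Spearman's rho of log2(TPM + 1), given as a description over tumors that share library preparation but differ in depth, was 0.83 to 0.94 in the 10 pairs (median 0.89). Without 29941C it was 0.77 to 0.91. The clustered genes went less closely with Prf1 (rho 0.49 to 0.80), Gzmb (0.42 to 0.70) and Gzma (0.35 to 0.64). They had rho of 0.08 to 0.42 with Gzmk and of -0.46 to -0.20 with Gzmm. Without 29941C the ranges were 0.32 to 0.73 for Prf1, 0.22 to 0.60 for Gzmb, 0.14 to 0.51 for Gzma, 0.02 to 0.44 for Gzmk and -0.44 to -0.15 for Gzmm. The part of shared reads in this likeness was not tested, and Gzmc, which shares few, had rho of 0.84 to 0.94 with the other 4.

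Ranked among the 14270 genes with a mean of at least 50 counts in the Myc tumors, Gzmd, Gzmf, Gzmg and Gzme stood 1st, 2nd, 5th and 10th in likeness to Gzmc. Prf1, Gzmb and Gzma stood at 89, 227 and 737. Gzmd, Gzme, Gzmg, Prf1, Gzmb and Gzma reached that mean count only through 29941C, where they were high, so their ranks support nothing. Gzmk and Gzmm did not reach it. Among the 10 other genes most like Gzmc were Il13ra2 (the decoy receptor of interleukin 13) and Cep295nl, both at rho 0.92, then Fcrl6 at 0.88, Angptl4 (an inhibitor of lipoprotein lipase) and Alox5 (5-lipoxygenase) at 0.85, Ubash3b, Vstm5 and Ptchd1 at 0.84, and Timp2 (a metalloproteinase inhibitor) at 0.82. Only 1 of these, Il13ra2, was also among the first 10 by Pearson's r. For Gzma the list was Hps3 (which acts in the making of lysosome-related organelles) at 0.94, Rab28 and Ptprb at 0.87, Helz2 at 0.85, Clec14a at 0.84, Zfp946 at 0.83, Aspa, Ccdc69 and Ormdl2 at 0.82, and Pear1 at 0.81. Ptprb and Clec14a are known as endothelial genes. By Pearson's r, 5 of these were kept. Without 29941C, rho was 0.79 to 0.95 for the genes named as like Gzmc and 0.77 to 0.92 for those named as like Gzma. Over 14270 genes and 11 tumors these values are a description without a test.

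The lymphocyte content of the tumors was read from lists of markers for each cell type. The 11 measured T cell markers summed to 3.31 to 10.2 TPM in the Shh tumors and to 6.63 to 65.8 in the Myc tumors. The 10 NK and group 1 innate lymphoid (ILC1) markers summed to 0.406 to 4.44 and to 0.359 to 24.4 TPM. The T cell list includes Lck, Cd247 and Cd4, which other cells also express, and Klra8 of the NK list was at 0 in all tumors.

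In 29941C genes of the T cell receptor complex were low, while 5 of the 9 detected NK and ILC1 markers were higher than in any other Myc tumor. Cd3e stood at 0.200 TPM, Cd3d at 0.281, Cd3g at 0.325 and Cd8a at 0.159 in that tumor. Among the 5 were Ncr1 (3.15 TPM) and Klrd1 (11 TPM), as high as in no other tumor, which also held for Il2rb (18.1 TPM), the shared interleukin 2 and 15 receptor chain. Its T cell marker sum was 10.4 TPM, of rank 9 among the 11 Myc tumors, and its NK marker sum of 24.4 TPM, to which Klrd1 gave the most, was the highest by little, with 43825B at 23.8 TPM. The extracranial 43990A showed the reverse of the cluster. It had the highest T cell sum (65.8 TPM) with Cd3e at 5.16, an NK sum of 21.5 TPM and Ncr1 at 1.25, yet no count of Gzmd, Gzme, Gzmf or Gzmg. The part of either cell type in these levels was not tested.

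Gzmm, which was present in all tumors, was left out of the next sum. Over the 11 Myc tumors, the sum of Gzma, Gzmb and Gzmk had rho of 0.91 with Ncr1, a receptor gene of the NK and ILC1 list, and of 0.78 with the NK and ILC1 marker sum. With Cd3e it had rho of 0.25 and with the T cell sum 0.02. Ncr1 was low, at 0.0542 to 3.15 TPM in the Myc tumors (median 0.175), so most of its ranks rest on low levels. The sum of Gzmc to Gzmg had rho of 0.24 with Ncr1, 0.38 with the NK and ILC1 sum, -0.24 with Cd3e and -0.12 with the T cell sum. Without 29941C, the sum of Gzma, Gzmb and Gzmk had rho of 0.88 with Ncr1, 0.71 with the NK and ILC1 sum, 0.59 with Cd3e and 0.24 with the T cell sum. The sum of Gzmc to Gzmg then had rho of -0.02, 0.18, -0.04 and 0.03 with the same measures. Its rho with the macrophage marker sum was 0.36, and 0.61 without 29941C, where the sum of Gzma, Gzmb and Gzmk had 0.16 and 0.44. With Gzmm included, the lymphocyte-type sum had rho of 0.76 with Ncr1, 0.51 with the NK and ILC1 sum, -0.02 with Cd3e and -0.30 with the T cell sum, and without 29941C 0.67, 0.34, 0.26 and -0.13.

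**Figure D3:**
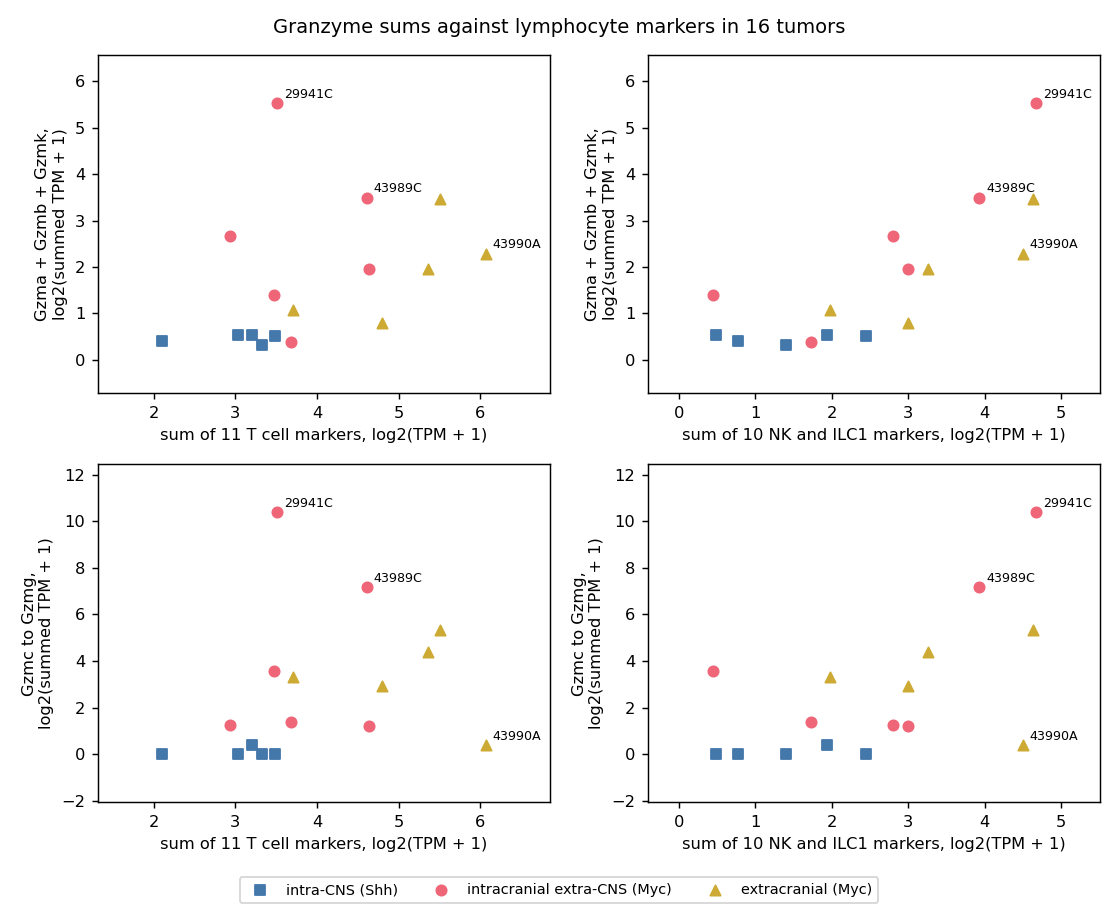
Summed TPM of Gzma, Gzmb and Gzmk (upper row) and of Gzmc to Gzmg (lower row) against the summed TPM of the T cell markers (left) and of the NK and ILC1 markers (right), all as log2(TPM + 1), with 1 point per tumor and color by site. Tumor 29941C is highest on the vertical axis in all panels with a low T cell sum (10.4 TPM), and 43990A is highest on the T cell axis with a clustered sum of 0.312 TPM.

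Other cell types that hold granule proteases were also measured. Mast cell and basophil markers summed to 107 TPM in 29941C, of which the histidine decarboxylase gene Hdc made 94.9, while the mast cell genes Cpa3, Tpsb2 and Fcer1a stood at 0.315, 0.0191 and 0 TPM. The 10 trophoblast and decidua markers summed to 1.49 TPM there and the 8 neutrophil markers to 142 TPM, within the range of the other Myc tumors (2.08 to 902). Their part in the granzyme levels was not tested.

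Around the cluster, each gene from Ctsg to Gzmb was highest in 29941C. Ctsg, the cathepsin G gene at the near edge of the cluster, stood at 10.6 TPM (508 counts) and at no more than 3 counts in any other tumor. Gzmn had 11 counts in 29941C and 0 in the other 15. Beyond Ctsg, the basophil protease gene Mcpt8 stood at 0.496 TPM, 3rd of the 11, the chymase gene Cma1 at 0.0763 and the mast cell proteases Mcpt1, Mcpt4 and Mcpt9 at 0. Past Gzmb, the next genes, Atp12a and Rnf17, stood at 0.0158 and 0.0525 TPM, and the flanking Cenpj and Parp4 were 4th and 7th of the 11. Of the genes outside this stretch with counts in 29941C and within 600 kb of Gzmc, only Ltb4r2, a leukotriene receptor gene, was highest there as well, at 2.79 TPM against at most 0.938 in the other Myc tumors. In 43989C, Gzmc and Gzmf were above 50 TPM while Ctsg stood at 0.365 TPM and Gzmn at 0.

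**Figure D4:**
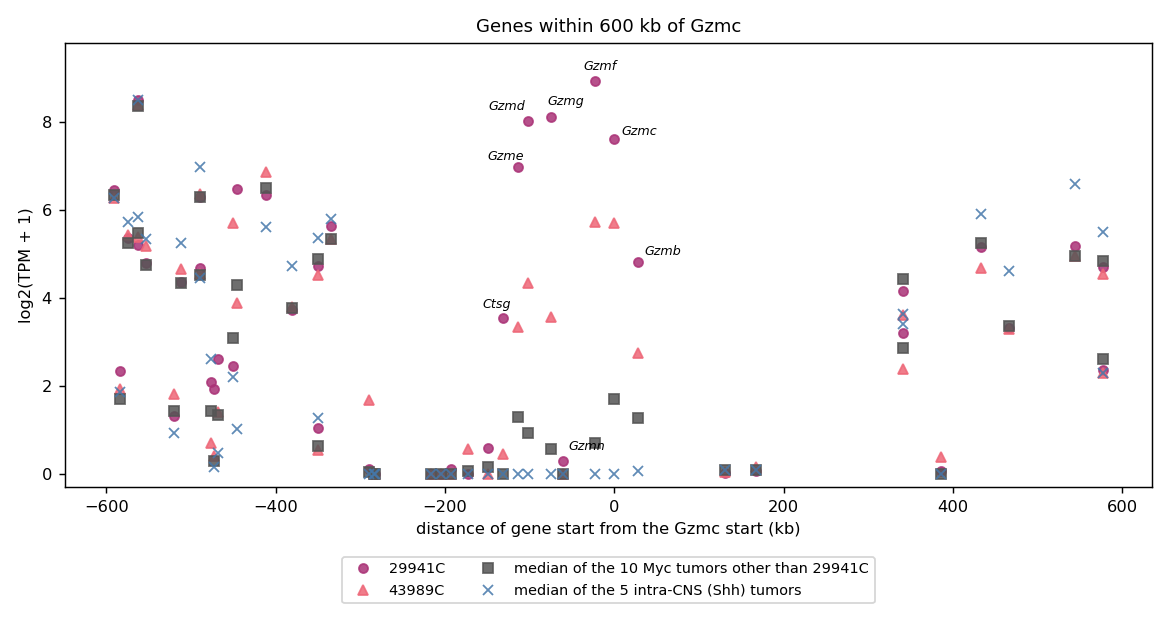
log2(TPM + 1) of the genes within 600 kb of Gzmc (vertical axis) against the distance of their start from the Gzmc start in kb (horizontal axis), for 29941C, for 43989C, for the median of the 10 Myc tumors other than 29941C and for the median of the 5 Shh tumors. The genes from Ctsg to Gzmb are raised in 29941C, whereas, apart from Ltb4r2, no gene farther out is highest in that tumor.

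Site was the first comparison within the Myc tumors, which asked whether tumors inside and outside the skull differed; the choice of genes did not use it. With edgeR's quasi-likelihood test, 0 of the 10 genes passed an adjusted p of 0.05 with a log2 fold change over 1, against 0.00470% of the 21261 genes tested, which is 1 gene. At an unadjusted p under 0.05 there was 1, Gzmm, against 12.3% of all genes. DESeq2, which gave 3 of the 10 no adjusted p, called 0 of them and 490 of all genes, and limma called 0 of the 10. Gzmm stood at 0.864 to 9.14 TPM in the intracranial and 0.542 to 1.34 TPM in the extracranial tumors, which overlap, and its log2 fold change was 1.87 ± 0.82 (SE, adjusted p = 0.391 by edgeR). Gzmc had a log2 fold change of 3.23 ± 1.54 (adjusted p = 0.418) and Gzmf of 4.91 ± 2.42 (adjusted p = 0.432), intracranial over extracranial. Without 29941C these fell to 1.41 and 1.91, that of Gzmd from 3.96 to 0.49, that of Prf1 from 2.87 to 0.17, and those of Gzmb and Gzmg turned from 1.55 and 4.08 to -0.10 and -0.20. The median levels of the cluster sum ran the other way, 6.19 TPM intracranial against 8.83 extracranial.

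Day of tamoxifen set 3 Myc tumors induced at E6 or E7 against 8 induced at E8. Again 0 of the 10 genes were called, with 0 of all 21261 genes called (0%), and 0 members had an unadjusted p under 0.05 against 3.51% of all genes. DESeq2 called 0 of the 2 members to which it gave an adjusted p, and limma 0. The log2 fold change of Gzmc was -3.60 ± 2.02 and that of Gzmf -4.26 ± 3.17, both with an adjusted p of 0.908 by edgeR. Without 29941C, an E8 tumor, they were -1.94 and -1.28, that of Gzmd went from -3.54 to -0.31, that of Gzmb from -1.39 to -0.06, and those of Prf1 and Gzmg turned from -2.20 and -3.35 to 0.31 and 0.67.

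Age at death, which stands for latency, gave 0 of 10 by edgeR, with 0 of all 21261 genes called (0%), and 0 by DESeq2 and limma. At an unadjusted p under 0.05 there were 3, Gzmc, Gzme and Prf1, against 3.97% of all genes. Their log2 slopes per doubling of age were -2.47 ± 0.96, -2.58 ± 0.96 and -1.90 ± 0.78, each with an adjusted p of 0.998. Tumor 29941C, at 52 days, was the youngest Myc tumor, and without it the slopes were -0.66, -0.30 and 1.12. Gzma, Gzmb, Gzmd, Gzmf and Gzmg also turned from negative to positive slopes without it. No difference by site, day or age could be shown at this spread between tumors.

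**Figure D5:**
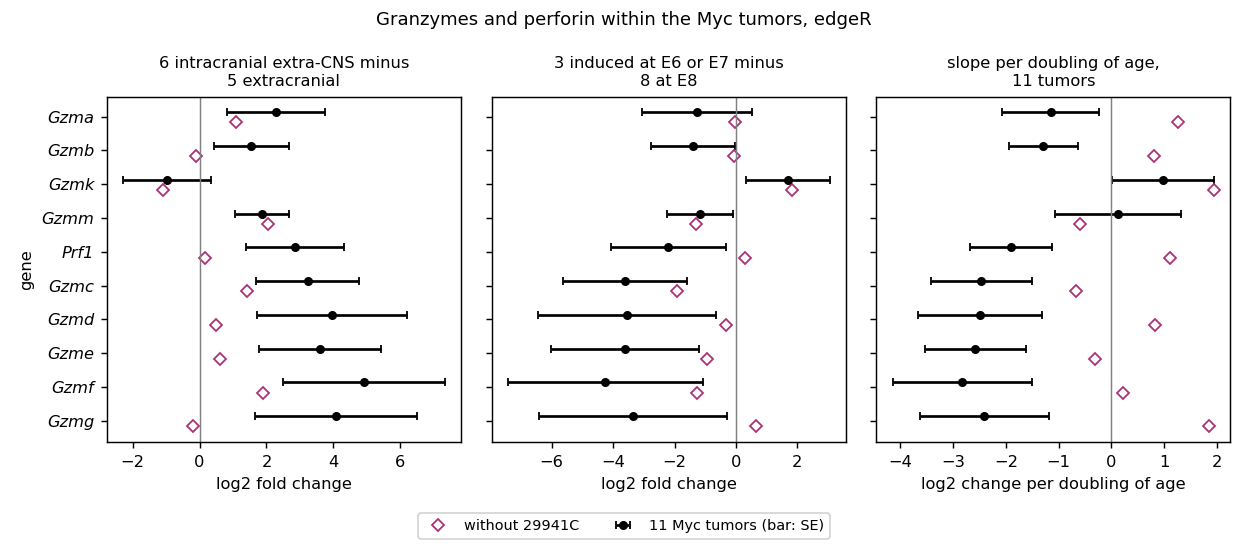
Log2 fold change by site (left) and by day of tamoxifen (middle) and log2 slope per doubling of age (right) for each gene in the 11 Myc tumors, from edgeR with 1 SE as bars, and the same value without 29941C as open diamonds. The estimates for the clustered genes move toward or past 0 once 29941C is left out.

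Between the Shh tumors and the 11 Myc tumors, the contrast known when these genes were chosen, 8 of the 10 were past the same threshold and lower in Shh, all but Gzmk and Gzmm (2 by DESeq2, which gave 7 no adjusted p, 2 by limma and 4 without 29050A), where 26% of the 21854 genes tested were past it in either direction and 13.1% lower. The choice of genes used this contrast, so that count is not an enrichment. Gzmc and Gzmb did not overlap between the groups. Of all genes, 2.44% had every Shh value below every Myc value. The lowest Myc values came from 4 counts for Gzmc and 6 for Gzmb. With the Shh mean set to the floor of 3 counts per library, the mean CPM of the Myc tumors were at least 109-fold higher for Gzmc, 116-fold for Gzmd, 57.6-fold for Gzme, 213.5-fold for Gzmf and 116-fold for Gzmg. Without 29941C these bounds were 35.4, 15.5, 10.2, 30.3 and 11.05. The 10 Shh values of Gzmb and Gzma came from 4 counts or fewer. Day of tamoxifen goes with this contrast, since every Shh tumor was induced at E6 and 2 of the Myc tumors were.

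Lists of pathway genes were also chosen with results of these data known, so their counts and p-values are a description and not an enrichment. In this contrast 26% of all genes were past the threshold in either direction, and 13.1% were lower in Shh. Of the 12 genes that process and release granzymes, 9 fell and 0 rose by edgeR, with a median log2 fold change of -1.74 against -0.15 over all genes. Among the 9 were Ctsc (cathepsin C, which activates the granzyme precursors; log2 fold change -2.75 ± 0.35, adjusted p = 3.63e-05), the granule matrix proteoglycan gene Srgn (-3.05 ± 0.49), the fusion protein gene Stx11 (-4.50 ± 0.55) and Nkg7 (-4.30 ± 1.39, adjusted p = 0.0255). In the same fit Lyst (0.26, adjusted p = 0.470) and Rab27a (-0.50, adjusted p = 0.422) did not pass. A separate fit of the tumors induced at E6 alone, which leaves 2 Myc tumors, called 5 of the 12 against 16.9% of all genes. Ctsc stood at 8.56 to 24.7 TPM in the Shh tumors and at 46.0 to 131 in the Myc tumors, which did not overlap. Macrophages express Ctsc and Srgn too, and all 7 macrophage markers fell in the Shh tumors. Their sums were 670.5 to 1070 TPM in Shh and 708 to 8365 in Myc tumors, and the part of macrophages was not tested.

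Some serpins protect cells from their own granzymes, and the list of granzyme inhibitors, made up of serpins, was next. Of 10 listed, 5 fell in Shh and 0 rose, with 3 to 5 called when single tumors were left out. Limma called 1, and DESeq2 called 4 and gave 4 no adjusted p. Serpinb6a fell by 3.57 ± 0.49 on the log2 scale (edgeR adjusted p = 7.52e-05) and Serpinb6b by 4.91 ± 1.66 (adjusted p = 0.0312), and Serpinb9, the inhibitor of granzyme B, fell by 3.21 ± 0.93 (edgeR adjusted p = 0.0141). Serpinb6a stood at 41.8 to 69.5 TPM in Shh and at 124 to 1123 in Myc tumors. The other 2 overlapped between the groups. Serpinb6b stood at 2.86 to 8.58 TPM in Shh and at 0.915 to 630.5 in Myc tumors (median 12.9). Serpinb9 stood at 3.84 to 12.1 and at 3.98 to 282 TPM (Myc median 19.9). Serpinb9b stood at 0.0574 to 0.264 TPM in Shh and at 0.114 to 859 TPM in Myc tumors (log2 fold change -10.35 ± 2.72, adjusted p = 0.00812). It was highest in 29225D (859) and 43825B (635), and at 4.17 TPM in 29941C. Serpinb9e was at or under 1 count in every Shh tumor and reached 40.1 TPM in 29225D, with a Myc median of only 0.0385 TPM. The inhibitor sum was 313 TPM in 29941C, against a median of 476 over the Myc tumors.

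Of the 11 listed granzyme substrates and SET complex genes, 1 fell and 2 rose, a share near that of all genes. Casp8 fell by 3.29 ± 0.32 (edgeR adjusted p = 4.6e-06), whereas Hmgb2, of the SET complex cut by granzyme A, rose by 1.38 ± 0.42 (adjusted p = 0.0176). Of the 15 measured transcription factors and cytokine genes of cytotoxic lymphocytes, 8 fell and 0 rose. The 8 included Il2rb (-3.97 ± 0.87, adjusted p = 0.00234), Runx3 (-3.55 ± 0.68), Il2rg (-3.11 ± 0.57) and Stat4 (-3.02 ± 0.71, adjusted p = 0.00387). With tumors induced at E6 alone 4 of the 15 were called. Runx3, a RUNX family factor whose binding was not measured here, stood at 0.306 to 3.53 TPM in Shh and at 3.02 to 37.8 TPM in Myc tumors, highest in 43989C and at 10.45 in 29941C. Of the 9 chymase locus neighbours, only Mcpt8 passed the test. It had no count in any Shh tumor and reached 0.682 TPM in the Myc tumors, levels too near the floor for a fold. Of the T cell markers 5 of 11 fell, with 3 to 7 called when single tumors were left out, 1 with tumors induced at E6 alone and 0 by limma. Of the 9 tested NK and ILC1 markers 6 fell, with 2 called with tumors induced at E6 alone and 2 by limma.

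Within the Myc tumors 0 genes of these 5 pathway lists passed edgeR's test by site, day or age. By site, 5 inhibitor genes, 3 regulators and 3 locus neighbours, of 10, 15 and 9, had an unadjusted p under 0.05, against the 12.3% of all genes given above. These inhibitors were Serpina3n and the close relatives Serpinb9d, Serpinb9e, Serpinb9f and Serpinb9g, which are not separate events. Tumor 29225D alone had all 10 inhibitors above the floor, and Serpinb9e had a Myc median of 0.0385 TPM. DESeq2 called 1 inhibitor and 2 regulators by site, and gave 4 inhibitors no adjusted p by site and 5 by day. By day it was 5 inhibitor genes, against 3.51% of all genes, and by age 5 inhibitor genes, 2 locus neighbours and 1 gene of processing and release, against 3.97%, with 0 called by DESeq2. The most abundant genes of the lists, Lamp1, Serpinb6a, Set, Id2 and Ctsg, had site log2 fold changes of -0.01, -0.48, -0.18, 0.21 and 5.24, with adjusted p-values of 0.376 or more, that of Ctsg resting on 29941C.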

How the data were processed

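The deposited gene counts of 16 tumors (24982 genes) and the authors' TPM of the same samples (24951 genes, summing to 1000000 per sample) were used. Per the labels, 100 bp paired-end reads came from stranded poly(A) libraries, and the submitters' processing notes name Trim Galore, FastQC, STAR 2.5.3a, Picard and mm10. The authors mapped the reads and counted them per gene with STAR; the annotation and the treatment of multi-mapping reads are not given in the sources used here.

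Counts were tested with edgeR 4.0.16 (TMM, quasi-likelihood, Benjamini-Hochberg) over genes with any count in the fitted tumors, called at an adjusted p under 0.05 and, except for age, an absolute log2 fold change above 1. Fold changes are log2. Each p-value rests on 1 tumor per mouse. Alternatives were DESeq2 1.42.0, limma 3.58.1 on log2(TPM + 1), edgeR with DESeq2 size factors or filterByExpr, no fold threshold, covariates, and leaving out each tumor. The fits were also run on simulated data with the same spread for all genes and changes only in well-counted genes. Those runs do not show what the fits can find in genes as uneven as these. Python 3.11.15 and scipy 1.17.1 gave intervals and correlations.

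The members and gene lists were chosen with earlier results of these data known. All 10 members are named. From each pathway list, called genes are named, at most the 4 of largest fold, and otherwise the most abundant. Named beside the rule, after their values were seen, were Serpinb9, Ctsg, Gzmn, Lyst and Rab27a. So were the inhibitors named by site, the genes around the cluster and the markers given for 29941C and 43990A. The most similar genes were the 10 of highest Spearman rho with Gzmc and Gzma. A few genes that this rule names are not reported here. TPM fold changes by limma carry a pseudocount of 1, which understates changes of low genes.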

Additional observations from a re-analysis of the deposited data

Results flagged for a closer look

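Of 29 sets of gene and site with any spread, 6 held a tumor far from the others, all in the Shh tumors and all at counts of 4 or fewer. Tumor R26P98 stood above the other 4 in Gzmb (0.293 TPM, next 0.0732) and in Prf1 (0.216 TPM, next 0.0539). Tumor 29050A, the deepest Shh library, was the only one with a count of Gzmc (0.0417 TPM), Gzmd (0.125 TPM), Gzmf (0.0429 TPM) and Gzmg (0.0857 TPM). Chance flags about 1 in 20 groups, a rate that does not hold for the 4 genes in which the other tumors were at 0, where any count stands apart. The measure was taken on log2(TPM + 1), on which 29941C was not singled out in any gene.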

How the results depend on the processing

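No paired analysis was possible because the tumors came from separate mice, with replicate numbers that only name samples. Within the Myc tumors the count of called members stayed at 0 in each alternative by site, day and age. The 8 members past the threshold between Shh and Myc tumors became 2 by DESeq2, which gave 7 no adjusted p, and 2 by limma, and ranged from 4 to 8 when single tumors were left out (4 without 29050A). The cause was not tested. Limma also turned Gzmm, not called, to 0.08.

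Some uncalled estimates changed sign when single tumors were left out, 29941C except where another is named. By site, the range was -0.10 to 2.06 for Gzmb, -0.20 to 5.75 for Gzmg and -1.35 to 0.25 for Gzmk (43825B). By day, it was -3.45 to 0.31 for Prf1 and -9.38 to 0.67 for Gzmg, and with site as a covariate Gzma turned to 0.72, Gzmf to 0.48 and Gzmg to 0.89. By age, the range was -2.61 to 1.25 for Gzma, -2.74 to 0.80 for Gzmb, -3.29 to 1.12 for Prf1, -5.43 to 0.83 for Gzmd, -5.51 to 0.21 for Gzmf, -5.98 to 1.85 for Gzmg and -0.24 to 1.95 for Gzmk (43825B). Gzmm ranged from -0.59 to 0.71 and also turned without 43987A (-0.18), 43998A (-0.10) or R26P115 (-0.20), with the name scheme as a covariate (-0.36) and with age in days (-0.32). The cause was not tested.

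The count of list genes under each alternative was chosen after seeing the data. With tumors induced at E6 alone, the Shh calls went from 9 to 5 for processing and release, from 8 to 4 for regulators, from 5 to 1 for T cell markers and from 6 to 2 for NK and ILC1 markers. Limma called 5, 1, 5, 0 and 2 of processing and release, inhibitors, substrates, T cell and NK genes. DESeq2 called 8 T cell markers and 5 substrates. Inhibitor calls went to 3 without any single Shh tumor. Levels of 3 counts or fewer are not resolved at these depths.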
